A study of Homo sapiens with 6 samples.

Results

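Nascent transcription of 10 autophagy and lysosome genes was examined in SH-SY5Y, a human neuroblastoma line, before and after exposure to MPP+, a neurotoxin that blocks respiratory complex I. The genes were listed by name and function: ULK1, BECN1, WIPI1, MAP1LC3B, GABARAPL1, SQSTM1, OPTN, TFEB, LAMP1 and CTSD. All 10 were matched to an identifier among the 67051 in the count tables. The assay was PRO-seq, in which polymerases engaged in isolated nuclei extend their transcripts with labelled nucleotides, so a count reflects transcription in progress and not the amount of mature RNA. The 3 groups were cells with no treatment, cells given 0.1 mM MPP+ for 0.5 h and cells given 0.1 mM MPP+ for 24 h, all in the same unmodified line, with 2 libraries each. The untreated libraries serve as controls for both exposures, so the comparisons share them.

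Autophagy encloses cytoplasm, protein aggregates or damaged mitochondria in a double membrane and delivers them to the lysosome for breakdown. ULK1 kinase starts the process, a phosphatidylinositol 3-kinase complex built around BECN1 marks the membrane, WIPI proteins read that mark, and small ubiquitin-like proteins of the ATG8 family are then attached to the membrane, where receptors such as SQSTM1 and OPTN bind them together with ubiquitin-tagged cargo. The transcription factor TFEB activates many of these genes and those of the lysosome through E-boxes in their promoters. Damaged mitochondria are removed along this route, and a complex I inhibitor is a common way to damage them.

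The libraries held 5983066 to 11707612 assigned counts. At the threshold of an adjusted p of 0.05, 17 of 23133 tested genes (0.0735%) were called at 0.5 h, 16 (0.0692%) at 24 h and 0 between 24 h and 0.5 h. These counts depended on the fit, as described in the closing section. The markers PHOX2A, HAND2, GATA3, ISL1, DBH and CHGA of sympathoadrenal neuroblasts were present in all 6 libraries, with 5690 to 14635 counts for GATA3, and TH, the enzyme of catecholamine synthesis, had 2 to 10 counts. Of leukocyte markers PTPRC had 15 to 31 counts, CD3E 1 to 8 and CD68 0. The 4 fibroblast markers summed to 24.3 to 33.1 CPM (counts per library, scaled by its total). Of the 4 epithelial and endothelial markers, with 149 to 184 CPM, EPCAM took most, with 776 to 1984 counts. Separate cultures are not stated for the 2 libraries of a group. The p-values therefore measure only how far these libraries spread, and that spread may be technical. A CPM is a share of its library, and fewer transcribing cells cannot be told apart from less transcription per cell.

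None of the 9 testable genes passed the test after 0.5 h or 24 h of MPP+ or between the exposures. The largest 0.5 h values among genes whose groups did not overlap belonged to MAP1LC3B and BECN1, which stood 1.22-fold and 1.21-fold above untreated cells and were back near the untreated level at 24 h. ULK1 and LAMP1 were at their lowest mean at 24 h, 0.788-fold and 0.829-fold of untreated cells, and OPTN was at its highest, 1.24-fold. The lowest mean of MAP1LC3B, BECN1 and CTSD was also at 24 h, as was the highest mean of SQSTM1 and TFEB. SQSTM1 had 0.966-fold at 0.5 h and 1.04-fold at 24 h. WIPI1 had no counts in any library, and CTSD had few.

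The values of these genes depend on how reads were assigned where genes overlap. In these tables, a gene whose annotated span lies inside that of another gene nearly always had 0 counts in all 6 libraries. This was so for 99.8% of 6882 genes lying within introns of a gene on the opposite strand and for 99.9% of 5848 lying within introns of a gene on the same strand, against 22.1% of 23394 genes that overlap no other. Positions shared by 2 genes therefore gave almost no counts to the nested gene, whatever the strand, and this held for genes that lie only within introns. The counts of a gene may thus hold reads from both strands, which was not tested. The annotation used for counting is not given in the sources used here. Shared positions were computed from GENCODE 29 and RefSeq spans on hg38 and are approximate: of 8 wholly shared genes of the pathway list used below, 3 still had counts, with 206 to 520 for ATG14, 182 to 312 for ATP6V1D and 8 to 16 for GABARAP.

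By this measure LAMP1 shared 0% of its span with another gene and OPTN 2.73%, ULK1 6.1%, SQSTM1 11.1%, GABARAPL1 13.3% and TFEB 26.1%. BECN1 shared 45.2% and MAP1LC3B 56.5%. CTSD shared 94.8%, mostly with a read-through gene on its own strand, and WIPI1 shared 100%. For the last 2 genes the tables say little or nothing about transcription of the gene body.

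**Figure D1:**
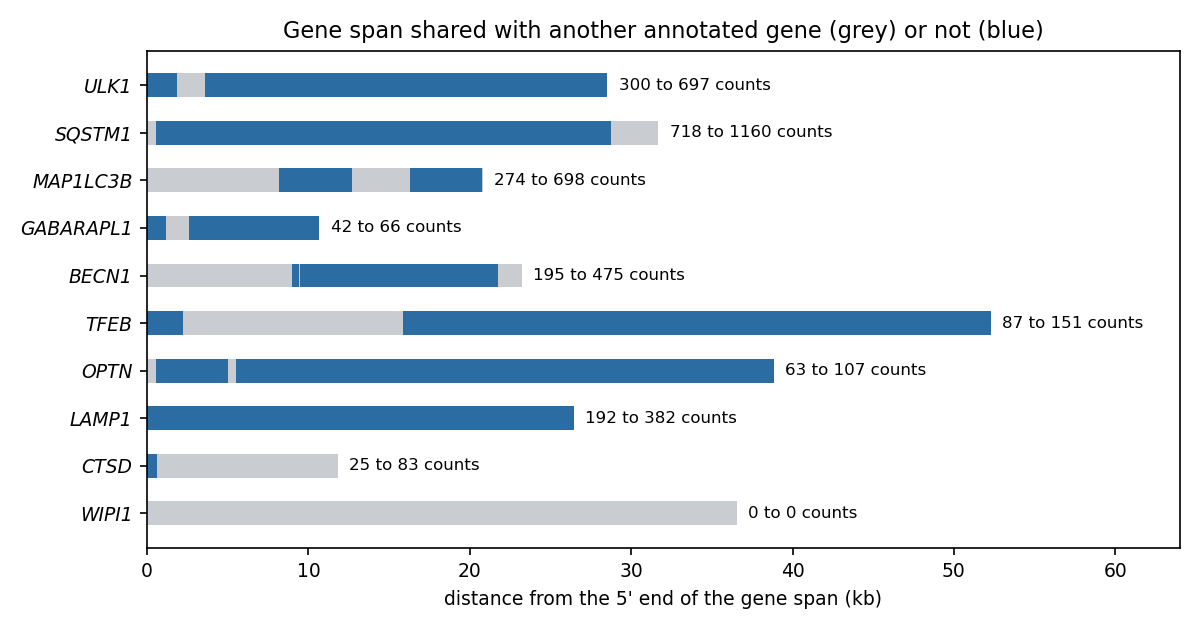
Annotated span of each gene in kb from its 5′ end, with stretches shared with another gene of GENCODE 29 or RefSeq in grey, unshared stretches in blue, and the lowest and highest raw count over the 6 libraries beside each bar. LAMP1 is unshared over its 26.4 kb, whereas CTSD keeps 0.619 kb at its 5′ end and WIPI1 keeps none.

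Among genes that start autophagy, ULK1 (ENSG00000177169.10, chromosome 12, 131894651 to 131923167, plus strand, GENCODE 29 on hg38) encodes the kinase that responds to AMPK and mTORC1. It had 70.7 and 56.3 CPM in the untreated libraries, 61.4 and 49.6 CPM at 0.5 h, and 51.1 and 48.7 CPM at 24 h. These are after TMM scaling, which is used for all CPM values from here on except the limits given for WIPI1. Both 24 h libraries lay below both untreated ones, while the 0.5 h libraries overlapped each of the other groups. The mean was 63.5 ± 10.2 CPM (SD, n = 2) in untreated cells and 49.9 ± 1.66 CPM at 24 h. The fold at 24 h was 0.788 (95% interval 0.628 to 0.988, log2 fold change -0.34 ± 0.14 SE, edgeR adjusted p = 0.602). At 0.5 h it was 0.877 (0.703 to 1.1, edgeR adjusted p = 1). The 24 h value rested in part on 1 control library: the log2 fold change was -0.17 without untreated replicate 1 and -0.51 without untreated replicate 2. These intervals are for single genes and are not adjusted for the number of genes tested.

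BECN1 (ENSG00000126581.13, chromosome 17, 42810134 to 42833350, minus strand) encodes the scaffold of the class III phosphatidylinositol 3-kinase complex and binds BCL2. Its libraries had 34.9 and 33.2 CPM without treatment, 41.8 and 40.5 CPM at 0.5 h, and 31 and 31.7 CPM at 24 h. It was the only member whose 0.5 h libraries both lay above the untreated ones while both 24 h libraries lay below them. The share of all tested genes with that order was not counted. The fold was 1.21 at 0.5 h (95% interval 1.01 to 1.45, log2 fold change 0.27 ± 0.12, edgeR adjusted p = 1) and 0.921 at 24 h (0.763 to 1.11, edgeR adjusted p = 0.856). Between 24 h and 0.5 h it was 0.761 (0.633 to 0.915, log2 fold change -0.39 ± 0.12, edgeR adjusted p = 0.754), and the log2 value ran from -0.42 to -0.37 when any 1 library was left out. By the spans above, the unshared part of BECN1 begins 8.97 kb from its 5′ end in GENCODE 29, and the genes that overlap it are PSME3, CNTD1 and MIR6781.

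WIPI1 (ENSG00000070540.13, chromosome 17, 68420948 to 68457513, minus strand) encodes a reader of phosphatidylinositol 3-phosphate on the growing membrane. It had 0 counts in all 6 libraries, which for these depths allows up to 0.256 to 0.501 CPM of assigned counts by counting error alone. Its whole span is covered by ARSG, a lysosomal sulfatase gene, and PRKAR1A, a protein kinase A regulatory subunit gene, both on the opposite strand. In RefSeq, ARSG runs from 68259170 to 68452019 and PRKAR1A from 68413623 to 68551316. ARSG had 337 to 649 counts and PRKAR1A 57 to 123. By these spans WIPI1 has no position of its own, and its 0 gives neither a level nor a change.

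The ATG8 family genes came next in the pathway. MAP1LC3B (ENSG00000140941.14, chromosome 16, 87383995 to 87404779, plus strand) encodes LC3B, the protein whose lipid-bound form is the usual autophagosome marker. It had 45 and 50.1 CPM in untreated libraries, 61.5 and 54.7 CPM at 0.5 h, and 45.2 and 44.5 CPM at 24 h. Both 0.5 h libraries lay above all 4 others, and the 24 h libraries overlapped the untreated ones. The fold at 0.5 h was 1.22 (95% interval 1.03 to 1.45, log2 fold change 0.29 ± 0.11, edgeR adjusted p = 1). At 24 h it was 0.943 against untreated cells (0.788 to 1.13, edgeR adjusted p = 0.897) and 0.772 against 0.5 h (0.647 to 0.92, log2 fold change -0.37 ± 0.11, edgeR adjusted p = 0.754). MAP1LC3B was higher at 0.5 h without any 1 library, with log2 fold changes of 0.20 to 0.36.

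MAP1LC3B shares sequence with MAP1LC3B2, a processed copy on another chromosome, and how reads matching both were placed is not given in the sources used here. MAP1LC3B2 had 27 to 39 counts against 274 to 698 for MAP1LC3B, with a log2 fold change at 0.5 h of -0.44 ± 0.26 (edgeR adjusted p = 1). The first 8.15 kb of the GENCODE span of MAP1LC3B are shared, and FBXO31 is among the genes that overlap it.

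GABARAPL1 (ENSG00000139112.11, chromosome 12, 10212458 to 10223130, plus strand), of the other branch of the family, had 42 to 66 raw counts. Its libraries had 6.64 and 7.04 CPM without treatment, 5.81 and 6.32 CPM at 0.5 h, and 5.57 and 6.82 CPM at 24 h. Both 0.5 h libraries lay below the untreated ones, and the 24 h libraries overlapped them. The counting error of a single library was 12.3% to 15.4% of its count. The fold was 0.884 at 0.5 h (95% interval 0.623 to 1.26, edgeR adjusted p = 1) and 0.897 at 24 h (0.624 to 1.29, edgeR adjusted p = 0.906). GABARAPL3, a processed copy, had 0 to 3 counts.

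**Figure D2:**
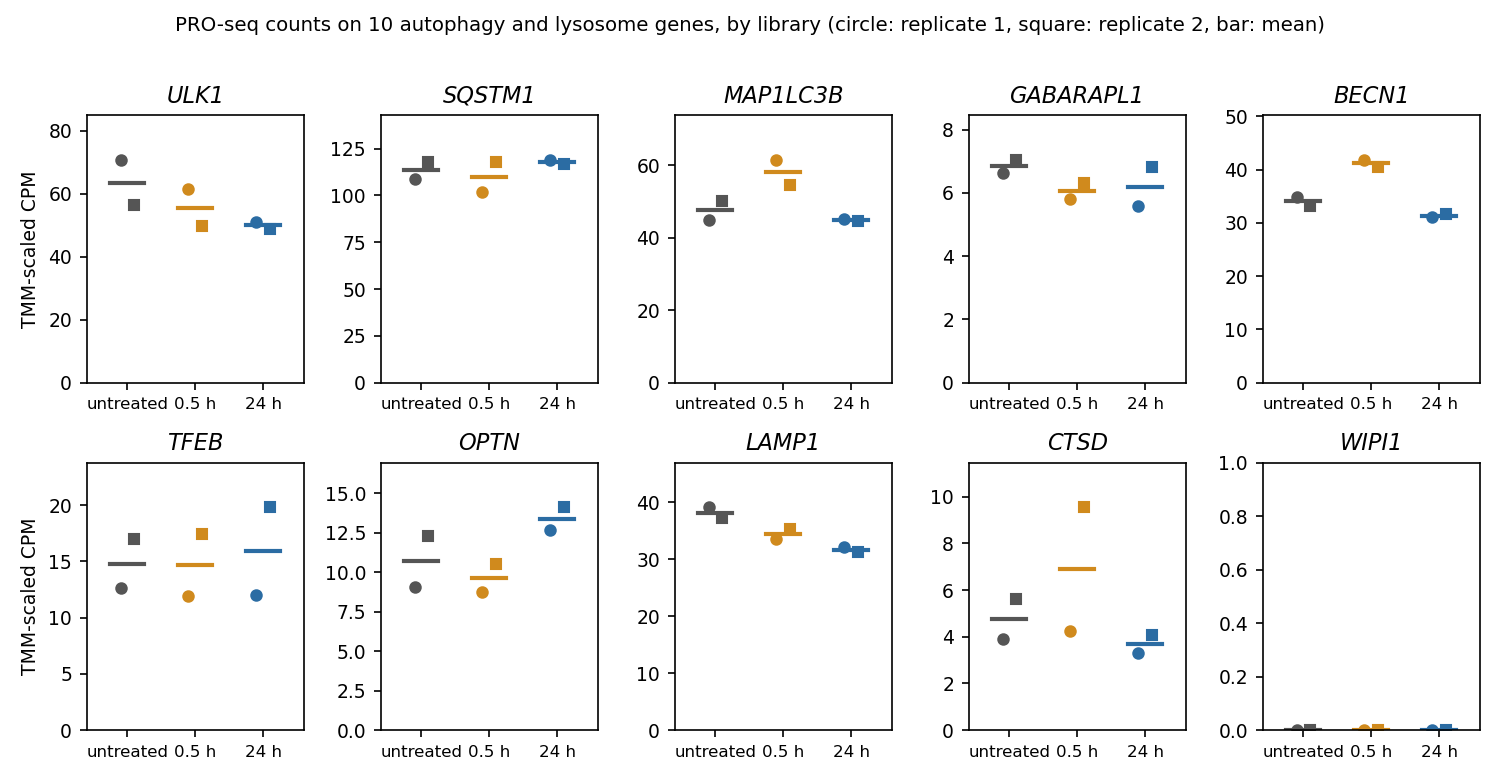
TMM-scaled CPM (y axis, from 0, own scale per gene) of the 10 genes in untreated, 0.5 h and 24 h libraries, with circles for replicate 1, squares for replicate 2 and bars for the mean. The 0.5 h points of MAP1LC3B and BECN1 lie above all their other points, TFEB keeps a gap between replicates in each group, and WIPI1 lies at 0.

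Among cargo receptors, SQSTM1 (ENSG00000161011.20, chromosome 5, 179806398 to 179838078, plus strand) encodes p62, which links ubiquitin chains to LC3 and is itself degraded by autophagy. It had the most counts of the 10 genes, 718 to 1160 a library. Its values were 109 and 118 CPM without treatment, 102 and 118 CPM at 0.5 h, and 119 and 117 CPM at 24 h, with all 3 groups overlapping. The fold was 0.966 at 0.5 h (95% interval 0.818 to 1.14, edgeR adjusted p = 1) and 1.04 at 24 h (0.876 to 1.23, edgeR adjusted p = 0.938). SQSTM1 had the smallest standard errors of the 9 genes on the log2 scale, 0.107 and 0.108. The sign of both values turned on leaving out 1 library: the log2 fold change at 0.5 h was 0.051 without 0.5 h replicate 1, and at 24 h it was -0.003 without untreated replicate 1.

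OPTN (ENSG00000123240.17, chromosome 10, 13099449 to 13138308, plus strand) encodes optineurin, a receptor recruited to damaged mitochondria downstream of PINK1 and Parkin. It had 9.09 and 12.3 CPM in untreated libraries, 8.72 and 10.5 CPM at 0.5 h, and 12.7 and 14.1 CPM at 24 h. Both 24 h libraries lay above the other 4, though the nearest were 12.3 CPM untreated and 12.7 CPM at 24 h. Raw counts of OPTN were 63 to 107, and the counting error of a single library was 9.67% to 12.6% of its count. The fold at 24 h was 1.24 against untreated cells (95% interval 0.879 to 1.75, log2 fold change 0.31 ± 0.22, edgeR adjusted p = 0.766) and 1.4 against 0.5 h (0.994 to 1.97, log2 fold change 0.48 ± 0.22, edgeR adjusted p = 0.768). At 0.5 h it was 0.887 (0.629 to 1.25, edgeR adjusted p = 1), with a log2 fold change of 0.062 without untreated replicate 2. The log2 value of OPTN at 24 h against untreated cells was 0.12 without untreated replicate 1 and 0.54 without untreated replicate 2.

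TFEB (ENSG00000112561.19, chromosome 6, 41683978 to 41736259, minus strand), the regulator of lysosome genes, had 12.6 and 17 CPM without treatment, 11.9 and 17.4 CPM at 0.5 h, and 12 and 19.8 CPM at 24 h. Replicate 2 was above replicate 1 in each group, by 1.35-fold, 1.46-fold and 1.65-fold, and these gaps were larger than any difference between group means. The fold was 0.978 at 0.5 h (95% interval 0.629 to 1.52, edgeR adjusted p = 1) and 1.06 at 24 h (0.673 to 1.66, edgeR adjusted p = 0.972). The same order of replicates held in all 3 groups for OPTN, GABARAPL1 and CTSD, and ULK1 had the opposite order in all 3, by 1.26-fold, 1.24-fold and 1.05-fold. The labels do not say what the replicate number stands for. Leaving out 1 library turned the sign of TFEB in both comparisons: the log2 fold change at 0.5 h was 0.20 without untreated replicate 2 and 0.23 without 0.5 h replicate 1, and at 24 h it was -0.12 without untreated replicate 1 and -0.31 without 24 h replicate 2.

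The lysosomal members were LAMP1, the most abundant glycoprotein of the lysosomal membrane together with LAMP2, and CTSD, the aspartic protease cathepsin D. Both carry the E-box TCACGTG, searched on both strands, in the RefSeq window from 250 bases before to 50 after the start (GRCh38.p14), and they were the only 2 of the 10 members with it. Such a match is a property of the letters and no evidence of binding. Of 35116 windows of this length, 3.71% held the motif. LAMP1 held 6 copies, the largest number in any window, and CTSD held 1. The windows are shown up to 10 bases past the start, 5′ to 3′ on the strand of the gene with the motif in capitals, because LAMP1 is the member with the densest E-boxes and because the unshared stretch of CTSD reaches into its window:
LAMP1 (chr13:113296989-113297248, plus strand): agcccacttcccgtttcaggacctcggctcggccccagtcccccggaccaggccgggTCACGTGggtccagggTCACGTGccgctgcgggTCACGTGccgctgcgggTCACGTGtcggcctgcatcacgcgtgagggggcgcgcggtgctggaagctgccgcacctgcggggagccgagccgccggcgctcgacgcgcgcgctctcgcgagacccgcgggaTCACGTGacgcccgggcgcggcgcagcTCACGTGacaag
CTSD (chr11:1763918-1764177, minus strand): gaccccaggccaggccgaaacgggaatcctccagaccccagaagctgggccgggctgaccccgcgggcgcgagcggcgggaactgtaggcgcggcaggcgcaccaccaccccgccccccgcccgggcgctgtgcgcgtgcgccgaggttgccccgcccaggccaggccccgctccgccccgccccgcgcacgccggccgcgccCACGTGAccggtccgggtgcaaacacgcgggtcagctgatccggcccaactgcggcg

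LAMP1 (ENSG00000185896.11, chromosome 13, 113297241 to 113323672, plus strand), the member whose whole span is countable, had 39.1 and 37.3 CPM in untreated libraries, 33.6 and 35.4 CPM at 0.5 h, and 32.1 and 31.2 CPM at 24 h. The 3 groups did not overlap, with untreated cells highest and 24 h lowest. How many of all tested genes had this order was not counted. The mean was 38.2 ± 1.29 CPM (SD, n = 2) without treatment, 34.5 ± 1.25 CPM at 0.5 h and 31.6 ± 0.658 CPM at 24 h. The fold was 0.904 at 0.5 h (95% interval 0.751 to 1.09, edgeR adjusted p = 1) and 0.829 at 24 h (0.686 to 1, log2 fold change -0.27 ± 0.12, edgeR adjusted p = 0.62). The log2 value at 24 h ran from -0.32 to -0.24 when any 1 library was left out.

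CTSD (ENSG00000117984.15, chromosome 11, 1752752 to 1764573, minus strand) had 25 to 83 raw counts. Its unshared 619 bases run from 1763955 to 1764573 and begin 28 bases upstream of the RefSeq start, on the promoter side. Of the 260 bases of the CTSD window shown above, 223 lie in that stretch of 619, so most of the unshared stretch lies farther upstream of the window. The libraries had 3.9 and 5.63 CPM without treatment, 4.23 and 9.54 CPM at 0.5 h, and 3.32 and 4.06 CPM at 24 h, with 0.5 h replicate 2 far above the rest. The fold at 0.5 h was 1.4 (95% interval 0.769 to 2.55, log2 fold change 0.48 ± 0.39, edgeR adjusted p = 1), and without 0.5 h replicate 2 the log2 value was -0.19. At 24 h the fold was 0.759 (0.388 to 1.49, edgeR adjusted p = 0.867), and the log2 fold change of -0.40 became -0.10 without untreated replicate 2, -0.24 without 24 h replicate 1 and -0.62 without untreated replicate 1. Between 24 h and 0.5 h CTSD had -0.88 on the log2 scale, with -0.21 without 0.5 h replicate 2 and -1.38 without 0.5 h replicate 1. These intervals were the widest of the 9 genes.

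**Figure D3:**
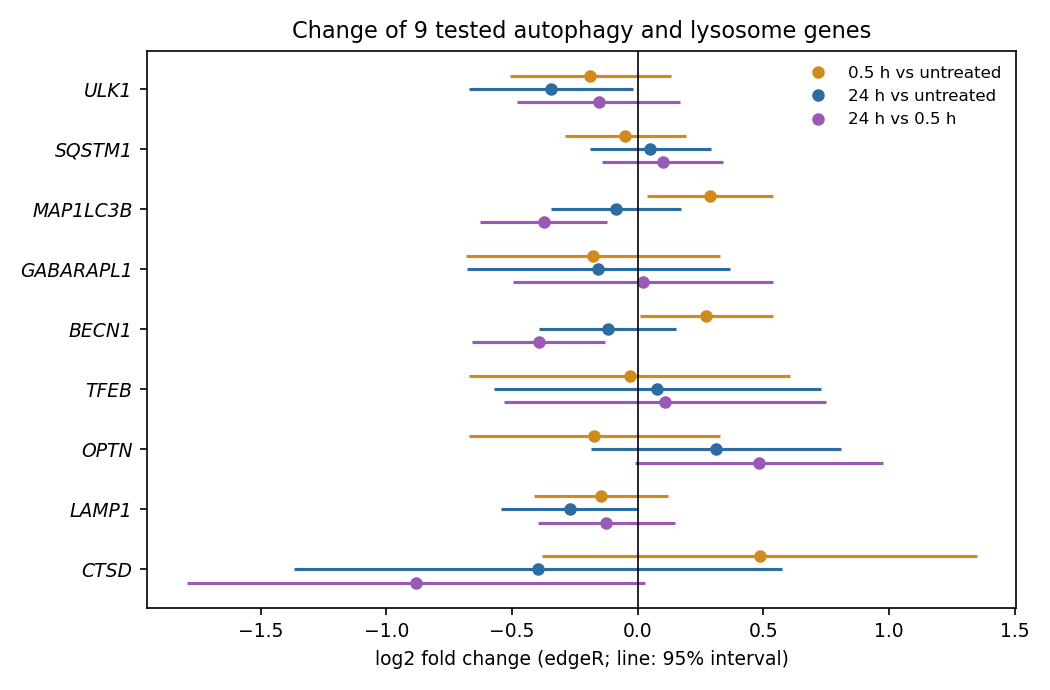
Log2 fold change (x axis, edgeR) of the 9 tested genes for each exposure relative to untreated cells and for 24 h relative to 0.5 h, with lines for the 95% interval of each. SQSTM1 has the narrowest intervals about 0 and CTSD the widest, and the 24 h against 0.5 h values of BECN1 (-0.39) and MAP1LC3B (-0.37) lie farthest from 0 relative to their intervals.

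Counted over the 9 tested members, 0 passed in each comparison by edgeR and 0 by DESeq2. At an unadjusted p under 0.05 edgeR gave 2 members at 0.5 h (MAP1LC3B and BECN1) where 2.46% of all genes did so, 1 at 24 h (ULK1) against 8.10%, and 2 between the exposures (MAP1LC3B and BECN1) against 6.42%. DESeq2 gave 0, 0 and 2 members, and 139 of 23133 genes at 0.5 h. The DESeq2 share of all genes between the exposures is not given here, so its 2 members there have no background beside them. At 0.5 h the libraries of 2 members lay wholly above the untreated ones and those of 2 wholly below (GABARAPL1 and LAMP1), against 12.9% and 14.4% of all genes. At 24 h, 1 member lay wholly above (OPTN) and 3 wholly below (ULK1, BECN1 and LAMP1), against 18.8% and 18.5%. Between 24 h and 0.5 h, OPTN lay above and MAP1LC3B, BECN1, LAMP1 and CTSD below, against 19.4% and 19.0% of all genes. That is 5 of 9 members apart in either direction, where 38.4% of all genes were, and it was 4 of 9 at 0.5 h and at 24 h, where 27.4% and 37.3% were. The median log2 fold change of the 9 members was -0.05 at 0.5 h and -0.12 at 24 h, with 0.01 and 0.00 over all tested genes, and 6 of 9 members were below 0 at each time. In the authors' deposited tables, which list 17 genes for 0.5 h and 24 for 24 h, 0 of the members appear.

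The members differed widely in level per length in untreated cells. Per kb of unshared span, MAP1LC3B had 5.26 ± 0.399 CPM (SD, n = 2), SQSTM1 4.03 ± 0.226, BECN1 2.67 ± 0.0944, ULK1 2.37 ± 0.38, LAMP1 1.45 ± 0.0482, GABARAPL1 0.739 ± 0.0306, TFEB 0.383 ± 0.0805 and OPTN 0.283 ± 0.0601. In this order only BECN1 and ULK1 were neighbours whose untreated libraries overlapped. The unshared part begins 8.15 kb from the 5′ end in MAP1LC3B and 8.97 kb in BECN1. In ULK1, LAMP1 and GABARAPL1 it begins at the 5′ end, so the order does not compare like parts of the genes. CTSD had 7.7 ± 1.98 CPM per kb over its 0.619 kb, and 0.403 ± 0.103 per kb of its whole span, so its place depends on the length used. Over whole spans SQSTM1, with 3.58 ± 0.201 CPM per kb, came before MAP1LC3B, with 2.29 ± 0.174. ULK1, with 2.23 ± 0.357, was then close to MAP1LC3B and came before BECN1. BECN1, with 1.47 ± 0.0518, was close to LAMP1, so the order of these genes also depends on the length used. TFEB and OPTN, a transcription factor and a receptor, were lowest by both lengths.

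The rest of the pathway was taken from a list of 107 further genes, of which 101 could be tested. By edgeR 0 of the 101 passed in either direction at 0.5 h, at 24 h or between them, and DESeq2 called none of the whole list either. Over the members and these genes together, 5, 5 and 8 of 110 had an unadjusted p under 0.05 by edgeR. DESeq2 gave 0, 0 and 3, and its share of all genes between the exposures is not given here. Over all tested genes the edgeR shares were 2.46% at 0.5 h, 8.10% at 24 h and 6.42% between the exposures. The groups of 24.8%, 38.6% and 43.6% of the 101 did not overlap in these comparisons, against 27.4%, 37.3% and 38.4% of all genes. The median log2 fold change of the 101 was 0.01 at 0.5 h, with 53 above 0, and -0.01 at 24 h, with 47 above 0. Of the 6 that could not be tested, GABARAPL2, GLA, ATP6V0C and ATP6V1F had 0 counts in every library and share their whole span, like WIPI1. VPS33A, with 2 to 10 counts, shares 99.7%, and MAP1LC3C had 1 to 5 counts with 0% shared.

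Close to the members in role, the 5 initiation genes at 24 h had a log2 fold change of -0.13 at the median, with ULK1 lowest, ULK2 at -0.13 ± 0.10 and the adaptor subunit ATG101 at -0.21 ± 0.16 (edgeR adjusted p = 0.796 and 0.792). Of 8 genes of the BECN1 complex the median was 0.00, with the BECN1 partner UVRAG at 0.15 ± 0.10 and the regulatory subunit NRBF2 at -0.06 ± 0.13. WIPI2, the paralogue of WIPI1 that recruits the conjugation machinery, had 90.2 and 83.5 CPM untreated, 73.9 and 75.8 CPM at 0.5 h, and 70.7 and 69.8 CPM at 24 h. Its untreated libraries lay above all 4 others. The log2 fold change of WIPI2 was -0.21 ± 0.10 at 0.5 h and -0.30 ± 0.10 at 24 h (edgeR adjusted p = 1 and 0.553), with a median of -0.11 over 6 genes of membrane growth at 24 h, where the lipid-transfer protein gene ATG2B had 0.14 ± 0.12.

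Among the 10 conjugation genes the 24 h median was 0.01, with ATG12, the ubiquitin-like partner of ATG5, at -0.25 ± 0.12 and the protease gene ATG4C at 0.10 ± 0.12. The 5 tested ATG8 genes had -0.09, with MAP1LC3A at 0.10 ± 0.14 and MAP1LC3B2 at -0.21 ± 0.27. The 12 genes listed under receptors, among them that of the kinase TBK1, had 0.01, with 6 above 0 and 6 below. CALCOCO2, which encodes NDP52 and acts beside OPTN in mitophagy, had 15.9 and 20.3 CPM untreated, 20.3 and 15.3 CPM at 0.5 h, and 23.5 and 26.9 CPM at 24 h. Like OPTN, CALCOCO2 was above the other 4 libraries at 24 h (log2 fold change 0.47 ± 0.20, edgeR adjusted p = 0.603), while the mitochondrial inner-membrane receptor gene PHB2 had -0.22 ± 0.12 (edgeR adjusted p = 0.708).

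The 6 transcription factor genes had a 24 h median of 0.14, with the TFEB relative MITF at 0.33 ± 0.18 and FOXO1, which also activates autophagy genes, at 0.33 ± 0.20 (edgeR adjusted p = 0.687 and 0.729). Of 11 tested fusion genes the median was 0.02, with the SNARE gene SNAP29 at 0.19 ± 0.12 and the tethering subunit gene VPS18 at -0.32 ± 0.26. In the lysosomal membrane the 8 genes had 0.01 and went both ways: beside LAMP1 at -0.27, LAMP2 had 20.6 and 20.9 CPM untreated, 24.7 and 22.8 CPM at 0.5 h, and 27.1 and 24 CPM at 24 h. LAMP2 lay above untreated cells in all 4 exposed libraries (0.30 ± 0.15 at 24 h, edgeR adjusted p = 0.658), as did the cholesterol exporter gene NPC1 (0.23 ± 0.13).

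Of the 26 tested genes listed under lysosomal enzymes the 24 h median was -0.03, and the list also holds PSAP and GRN, whose products are not enzymes. GALNS, a sulfatase of keratan sulfate breakdown, had 64.8 and 63.8 CPM untreated, 53.9 and 52.1 CPM at 0.5 h, and 53.1 and 53.1 CPM at 24 h. Its exposed libraries lay below both untreated ones, at -0.28 ± 0.10 at each time (edgeR adjusted p = 1 at 0.5 h and 0.578 at 24 h). Both values use the same untreated libraries, and GALNS was named for its small p at 24 h. PSAP, the precursor of the saposins that help degrade sphingolipids, had 0.27 ± 0.12 at 24 h (edgeR adjusted p = 0.605). The 13 tested subunit genes of the V-ATPase, the pump that acidifies the lysosome, had a 24 h median of -0.10 with 9 below 0, among them ATP6V0D1 at -0.29 ± 0.15 and ATP6V1C1 at -0.25 ± 0.15 (edgeR adjusted p = 0.662 and 0.726).

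The named genes were picked for their 24 h values, and their 0.5 h values are given beside those as a description. MAP1LC3B2 had -0.44 at 0.5 h, as above. ULK2 had a log2 fold change of 0.078, ATG101 0.060, UVRAG -0.018, NRBF2 0.091, ATG2B 0.10, ATG12 0.052, ATG4C -0.091 and MAP1LC3A 0.017. The receptor genes CALCOCO2 and PHB2 had -0.024 and 0.088, MITF -0.018, FOXO1 0.095, SNAP29 0.067 and VPS18 -0.20. Of the lysosomal genes, LAMP2 had 0.19, NPC1 0.14, PSAP 0.17, ATP6V0D1 -0.255 and ATP6V1C1 -0.077. The edgeR adjusted p was 1 for each of these genes at 0.5 h.

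**Figure D4:**
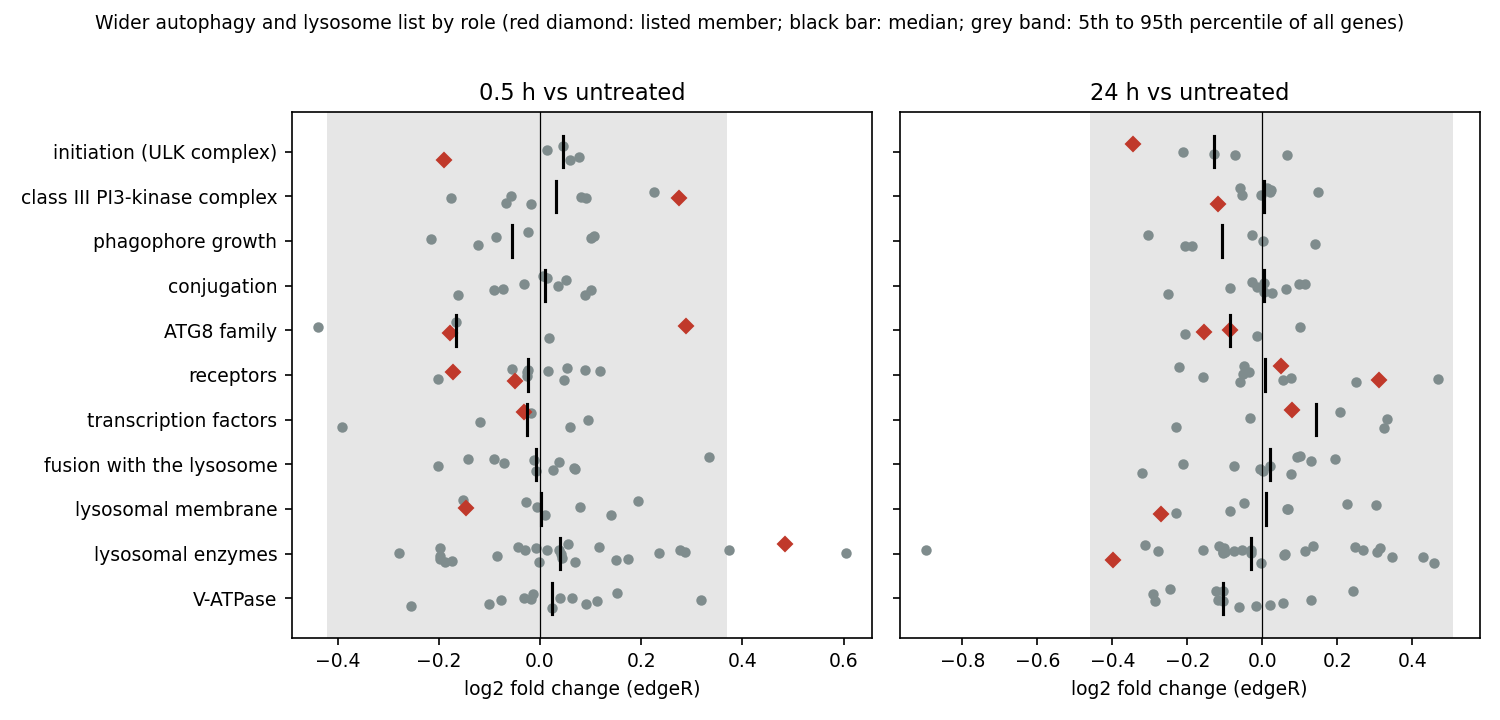
Log2 fold change (x axis, edgeR) of 110 autophagy and lysosome genes by role at 0.5 h and at 24 h against untreated, with members as red diamonds, other genes as grey points, medians as black bars and the 5th to 95th percentile of all tested genes as a grey band. The role medians at 24 h lie between -0.13 (initiation) and 0.14 (transcription factors).

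The E-box was also looked for across the list. Of 80 further pathway genes with a RefSeq window, 16 (20%) held TCACGTG on either strand in at least 1 window, against 4.49% of the 27305 symbols with a window. The pathway genes and these symbols were not matched for gene type or for windows per gene. The 18 tested genes with the motif, LAMP1 and CTSD included, had a median log2 fold change of 0.056 at 0.5 h and -0.082 at 24 h, and the 66 tested genes with a window but no motif had 0.007 and -0.003. At 24 h the values of the genes with the motif ran from -0.40 to 0.30, with 7 above 0 and 11 below. None of the 18 passed the edgeR test in any comparison. These medians describe the list and were not tested against each other.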

How the data were processed

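The authors deposited raw counts per gene for each of 6 PRO-seq libraries, and the file headers name reads trimmed and aligned with Bowtie2. The submitters' processing notes list featureCounts 2.0.1, with Bowtie2 2.4.2, cutadapt 1.16.5 and DESeq2 2.11.40.6 also listed, and the hg38 build. Not given in the sources used here are the strand, overlap and multimapping settings. For each exposure the authors also deposited a short list of genes with columns for log2 fold change, p-value, Wald score and mean signal, and only its identifiers were used.

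Of 67051 identifiers, 42023 were named from a gene name table, 16483 from GENCODE 29, and 8545 had no symbol. Counts were filtered with filterByExpr by group (23133 genes left), scaled by TMM and fitted over the 6 libraries together with edgeR 4.0.16 (R 4.3.3), 1 coefficient per group, 3 residual degrees of freedom. P-values are two-sided quasi-likelihood F tests, with Benjamini-Hochberg adjustment across the genes tested. The common coefficient of variation was 0.113. Intervals are 95% and use the same fit, and floors take 3 counts per library. Reads carry no molecular identifiers, so floors and counting errors cover counting error only. The 2 libraries of a group gave chi-square values of 4.13 to 9.06 per degree of freedom, above sampling noise. DESeq2 1.42.0 was an alternative. The procedure was run on simulated counts with the same coefficient of variation for every gene and no replicate effect. Power for folds as small as those of MAP1LC3B and BECN1 was not tested.

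The members and lists were chosen with earlier results of these data known. Genes outside the members were named by a rule: up to 2 per role with the smallest p at 24 h. Alternatives were other scalings and filters, DESeq2, a replicate block, only the groups compared, and leaving out each library. Some marker genes are not reported here.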

Additional observations from a re-analysis of the deposited data

How the results depend on the processing

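No member and no gene of the wider list passed the threshold in any comparison under any of the 14 alternative fits, of which the filter at a mean of 50 counts left CTSD untested. The members' smallest adjusted p was 0.0621, for ULK1 at 24 h with the replicate number as a block. Between 24 h and 0.5 h the lowest over the 14 alternative fits, by edgeR or DESeq2, was 0.0643 for MAP1LC3B and 0.0843 for BECN1. Under the 8 settings other than leaving out a library, DESeq2 included, each tested member's log2 fold change kept its sign, except that CTSD had no value under that filter. The count over all genes depended on the fit. Against 17 at 0.5 h, 16 at 24 h and 0 between the exposures, it was 66, 245 and 73 with no filter on low counts. With the replicate block it was 57, 685 and 412, and DESeq2 called 31 at 24 h. Leaving out 1 library gave 9 to 19 at 0.5 h, with 9 without 0.5 h replicate 1, and 8 to 16 at 24 h, with 8 without untreated replicate 1 and 10 without 24 h replicate 1. The cause was not tested. The differences between replicates 1 and 2 correlated between groups across genes (r = 0.293 to 0.328), but the labels do not say that equal numbers share a culture or a day, so the block stands here only.

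With 1 library left out, log2 fold changes at 0.5 h ran from -0.16 to 0.051 for SQSTM1, -0.32 to 0.23 for TFEB, -0.37 to 0.062 for OPTN and -0.19 to 0.99 for CTSD. At 24 h they ran from -0.003 to 0.096 for SQSTM1 and -0.31 to 0.41 for TFEB. Between the exposures they ran from -0.30 to 0.011 for ULK1, -0.12 to 0.17 for GABARAPL1 and -0.28 to 0.44 for TFEB. Depth limits CTSD and GABARAPL1 most, with a counting error of up to 20% and 15.4% of a library's count.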
